A study of Mus musculus with 6 samples.

Results

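The constitutive proteasome genes were taken as every gene whose symbol is Psm, a letter from a to g and a number, without the interferon-inducible catalytic subunits Psmb8, Psmb9 and Psmb10. This gave 45 of the 20325 genes in the deposited files. The set holds the subunits of the core particle, the regulatory cap, the activators and the chaperones that assemble them. RNA was sequenced from 2 mouse pre-iPSC lines, pre3 and pre2-2. Pre-iPSCs are partly reprogrammed cells that have not become pluripotent. All cells came from fibroblasts of OG2 mice whose mixed strain was 1/2 129SVJ, 3/8 C57B6 and 1/8 CBA, were at passage 10, and were kept with LIF and vitamin C at 50 µg/ml in every group. In each line 1 library was made after transfection of an siRNA against Tet1 (siTet1), 1 after a control siRNA and 1 without transfection, so that each treatment had 2 libraries and each line 3.

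The labels disagree on several points. For times, the series text gives vitamin C 16 h after transfection and RNA 32 h after that. The descriptions of single samples instead state 36 h of vitamin C and RNA at 48 h. One field names the target only as Tet. The cell type field reads fibroblasts, whereas the series text names pre-iPSCs. Each line gave 1 library per treatment, and nothing states that the libraries of a line came from separate cultures. The p-values and intervals rest on the spread left between these libraries after line and treatment, which may be technical. That spread was largely pooled over genes and is not a measure of replicates of each gene.

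The proteasome is the protease complex that degrades proteins tagged with ubiquitin. Its core particle is a barrel of outer alpha rings and inner beta rings, and only Psmb5, Psmb6 and Psmb7 among the constitutive beta subunits carry active sites. The cap has a base of ATPases, which unfold the substrate, and a lid, which removes the ubiquitin chain. Interferon replaces the active subunits by Psmb8, Psmb9 and Psmb10 and raises the activator made of Psme1 and Psme2. Nfe2l1, a transcription factor, induces subunit genes together when proteasome activity is short. High proteasome activity is a known feature of pluripotent stem cells.

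The 6 libraries held 1868640 to 2582803 expected counts, which are the read numbers per gene estimated by the authors' software, and 3 counts equalled 1.17 to 1.60 CPM, which are counts scaled to a common library total. These floors cover counting error only. The first principal component, with 62.6% of the variance, separated the lines. The untransfected pre2-2 library stood apart from the other pre2-2 libraries, at -19.0 on that axis against -41.5 and -41.2. In pre3 the untransfected library was also the highest, at 43.4 against 32.2 (control siRNA) and 26.1 (siTet1). The main results that rest on the untransfected pre2-2 library are also given without it. Tet1, the targeted gene, had 159 (pre3) and 154 (pre2-2) CPM with siTet1, against 251 and 246 CPM with control siRNA and 205 and 250 CPM untransfected, and fell by 0.67 on the log2 scale against control siRNA (adjusted p 0.0043). The pluripotency factor Pou5f1 had 5790 to 6620 CPM in pre3 and 1040 to 1210 CPM in pre2-2. Other pluripotency markers went the other way, such as Sall4, at 33.9 to 41 CPM in pre3 and 58.5 to 79.3 CPM in pre2-2. Of 10 such markers 6 were tested, with 3 higher and 3 lower in pre3 by the sign of the log2 fold change. Nanog did not exceed 3.54 CPM in any library. The 12 fibroblast markers summed to 686 to 775 TPM, which are transcript shares scaled to a common total, in pre3 and 1503 to 2708 TPM in pre2-2, and none of the 12 was at 0 in every library.

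Of the 45 proteasome genes, 43 had enough counts to be tested. The exceptions were both tissue-restricted paralogs. Psma8, the alpha subunit of the testis, was listed at 0 in all 6 libraries, which allows a level of up to 1.17 to 1.60 CPM. Psmb11, the catalytic subunit of thymic epithelium, had 25 summed counts, with 0 (pre3) and 2.81 (pre2-2) CPM with siTet1, 2.67 and 2.02 CPM with control siRNA, and 1.54 and 2.72 CPM untransfected. All other genes of the set were present in every library. Together the 45 genes made 1.02 to 1.15% of the transcripts of a library. Their summed level was 10236 (pre3) and 10295 (pre2-2) TPM with siTet1, 10493 and 11056 TPM with control siRNA, and 10202 and 11533 TPM untransfected. The untransfected pre2-2 library was the highest, and the other 5 lay between 10202 and 11056 TPM.

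The tested proteasome genes varied little between libraries. The coefficient of variation of CPM over the 6 libraries had a median of 9.49%, against 18.7% over all 11048 genes tested. It was 14.8% over the 7474 genes at least as abundant as the lowest of the set, at 22.9 CPM. Those genes share only that lower bound with the set and are not matched to it for abundance. The catalytic subunit Psmb6 was the steadiest, at 3.81% with a mean of 151 CPM. The core chaperone Psmg3 was the most variable, at 22.4% with a mean of 28.4 CPM. Psmg3 had 40 to 83 counts per library, where counting error weighs more. The order of the 43 genes by TPM was also kept, with a Spearman rho across genes of 0.954 to 0.986 over the 15 pairs of libraries. Genes are not independent replicates, and the pairs share libraries.

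**Figure D1:**
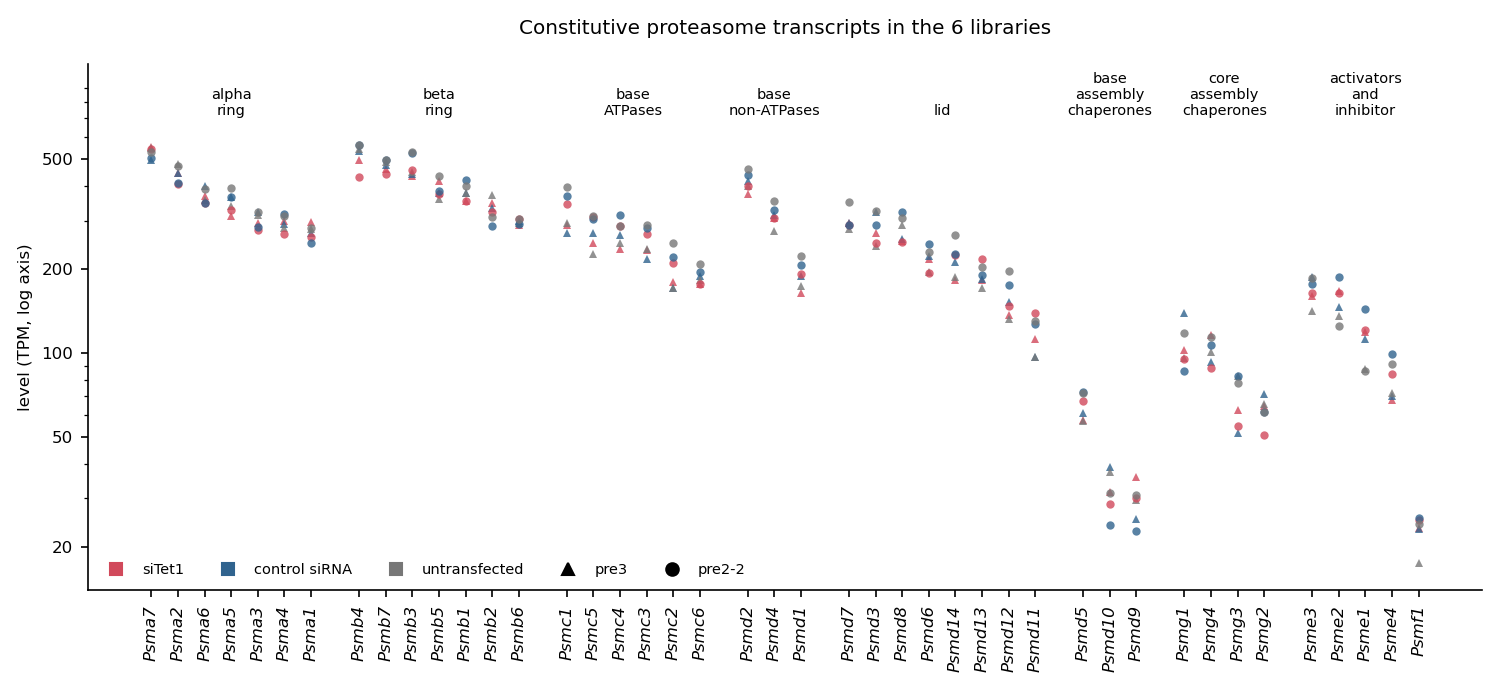
Level of each tested proteasome gene in each library, in TPM on a log axis, ordered within each functional group by its mean. Colours give the treatment, triangles pre3 and circles pre2-2. Core subunits sit highest, led by Psma7 at a mean of 528 TPM, and Psmf1 lowest, at 23.2 TPM.

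Levels between genes are given in TPM, which corrects for transcript length. The 7 tested alpha ring genes, which form the gate of the barrel, averaged 273 to 528 TPM. Psma7 had the highest mean of the whole set, with 550 (pre3) and 544 (pre2-2) TPM with siTet1, 495 and 504 TPM with control siRNA, and 547 and 529 TPM untransfected. Psma1 was the lowest of the ring, with 296 and 261 TPM with siTet1, 271 and 250 TPM with control siRNA, and 279 and 282 TPM untransfected. In every library Psma7 exceeded Psma1, by 1.82-fold to 2.09-fold.

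The 7 tested beta ring genes averaged 297 to 521 TPM. The structural subunit Psmb4 led, with 496 (pre3) and 430 (pre2-2) TPM with siTet1, 534 and 562 TPM with control siRNA, and 544 and 560 TPM untransfected. Both siTet1 libraries were the lowest for this gene. Psmb4 exceeded Psma7 in both control siRNA libraries and in the untransfected pre2-2 library. Among the catalytic subunits, Psmb7, which carries the trypsin-like site, had 461 and 442 TPM with siTet1, 474 and 494 TPM with control siRNA, and 486 and 495 TPM untransfected. Psmb5, which carries the chymotrypsin-like site, had 416 and 373 TPM with siTet1, 377 and 384 TPM with control siRNA, and 359 and 433 TPM untransfected. Psmb6, which carries the caspase-like site, had 288 and 303 TPM with siTet1, 300 and 292 TPM with control siRNA, and 293 and 304 TPM untransfected. The order Psmb7, Psmb5, Psmb6 held in all 6 libraries, although these subunits enter the ring in equal number.

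The promoters of Psmb5 and Psmb6 are shown because both hold the letters TGACNNNGC, the core of the antioxidant response element that Nfe2l1 and its relative Nfe2l2 bind. Each is the RefSeq sequence of GRCm38.p6 from 250 bases before to 50 after the gene's start, 5′ to 3′ on the gene's strand, with the matched letters in capitals. The Psmb5 window is chr14:54617946-54618245 on the minus strand, with the match 47 to 39 bases before the start. The Psmb6 window is chr11:70525107-70525406 on the plus strand, with the match 9 to 1 bases before it.
Psmb5: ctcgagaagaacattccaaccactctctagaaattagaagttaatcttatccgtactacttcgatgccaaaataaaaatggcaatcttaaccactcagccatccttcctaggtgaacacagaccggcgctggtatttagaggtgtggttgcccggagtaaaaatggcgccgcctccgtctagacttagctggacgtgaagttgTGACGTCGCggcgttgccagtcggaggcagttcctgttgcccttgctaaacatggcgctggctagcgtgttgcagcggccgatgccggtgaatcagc
Psmb6: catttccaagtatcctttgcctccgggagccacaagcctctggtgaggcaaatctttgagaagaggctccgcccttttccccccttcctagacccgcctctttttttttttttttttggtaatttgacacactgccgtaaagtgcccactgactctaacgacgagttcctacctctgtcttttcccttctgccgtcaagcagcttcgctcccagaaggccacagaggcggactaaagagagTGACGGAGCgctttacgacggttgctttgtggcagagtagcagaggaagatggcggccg

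Windows were given for 37 of the 45 genes. TGACNNNGC, on either strand, was in 6 of the 37 (16.2%), namely Psmb5, Psmb6, Psmc6, Psmd9, Psmd12 and Psme4, against 14% of 27025 gene promoters of the same length. CCAAT, bound by NF-Y, was in 13 (35.1%) against 41.1%. GGGCGG, bound by Sp factors, was in 22 (59.5%) against 38.2%. These are matches of letters in a window and not binding data.

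The 6 base ATPases averaged 189 to 326 TPM. Psmc1 led, with 290 (pre3) and 343 (pre2-2) TPM with siTet1, 270 and 367 TPM with control siRNA, and 294 and 395 TPM untransfected. Psmc6 was lowest, with 177 TPM in both lines with siTet1, 190 and 196 TPM with control siRNA, and 183 and 209 TPM untransfected. For Psmc1 every pre3 library lay below every pre2-2 library. The summed level of the 6 ATPases was 1362 to 1386 TPM in pre3 and 1596 to 1740 TPM in pre2-2, also without overlap.

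The other base subunits averaged 192 to 415 TPM. Psmd2, a scaffold that docks ubiquitin-like domains, had 373 (pre3) and 399 (pre2-2) TPM with siTet1, 417 and 439 TPM with control siRNA, and 398 and 460 TPM untransfected. Psmd1, the second large scaffold, had 164 and 192 TPM with siTet1, 189 and 208 TPM with control siRNA, and 174 and 224 TPM untransfected. In each of the 6 libraries Psmd2 was the higher by at least 2.05-fold. The ubiquitin receptor Psmd4 lay between them, at 275 to 354 TPM.

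The 8 lid genes averaged 117 to 299 TPM. Psmd7, the partner of the deubiquitinase Psmd14, had 294 (pre3) and 288 (pre2-2) TPM with siTet1, 293 and 289 TPM with control siRNA, and 280 and 351 TPM untransfected. Psmd11 was the lowest of the lid, with 112 and 139 TPM with siTet1, 96.7 and 127 TPM with control siRNA, and 96.8 and 130 TPM untransfected. Psmd11 was lower in every pre3 library than in any pre2-2 library. Psmd14 itself ranged from 183 to 266 TPM.

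The assembly factors of the set, which leave the finished particle, were less abundant than the subunits they place. This does not extend to Pomp, a core chaperone outside the set, which averaged 315 TPM, above the core subunit Psmb6 at 297 TPM. The base chaperone Psmd5 had 57.5 (pre3) and 67.1 (pre2-2) TPM with siTet1, 61.0 and 72.4 TPM with control siRNA, and 57.0 and 71.9 TPM untransfected. Psmd9, another base chaperone, had 35.8 and 30.1 TPM with siTet1, 25.3 and 23.0 TPM with control siRNA, and 29.7 and 31.0 TPM untransfected. Psmd9 was lowest in the control siRNA libraries of both lines. The 4 core chaperones averaged 62.4 to 106 TPM. Psmg1 had 103 and 95 TPM with siTet1, 139 and 86.6 TPM with control siRNA, and 96.2 and 118 TPM untransfected. Psmg2, with which Psmg1 forms a dimer, had 64.7 and 50.8 TPM with siTet1, 71.1 and 61.4 TPM with control siRNA, and 65.5 and 61.3 TPM untransfected. For Psmg1 the control siRNA libraries were both the highest and the lowest of the 6, so the lines went opposite ways.

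The activators, which open the core in place of the cap, averaged 80.8 to 170 TPM, and the inhibitor Psmf1 averaged 23.2 TPM. Psme3, the nuclear activator, had 161 (pre3) and 164 (pre2-2) TPM with siTet1, 188 and 178 TPM with control siRNA, and 142 and 186 TPM untransfected. Psmf1, named for inhibiting the core in the test tube, had 23.5 and 25.2 TPM with siTet1, 23.3 and 25.5 TPM with control siRNA, and 17.6 and 24.3 TPM untransfected. The pre3 untransfected library was lowest for both genes. Psme4, a large activator of the nucleus, averaged 80.8 TPM, and Psme1 and Psme2 averaged 112 and 155 TPM. Psme2 shares 54.9% of its 50-base words with other annotated genes that the files do not list, so its level may include reads of those genes. The same holds for Psmb3 (55.8%), Psma5 (54.5%) and Psmb5 (54.1%). The share was 25.6% for Psmd2, 22% for Psma3, 21.8% for Psmg3 and 19.2% for Psma4. It was 17.6% for Psmc1, 12.5% for Psmd11, 11.3% for Psme1 and at most 8.36% for the rest. Exons of Psma4, Psmb7, Psmc3 and Psmd13 overlap a gene on the opposite strand by 97 to 405 bases, and it is not stated whether counting used strand.

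**Figure D2:**
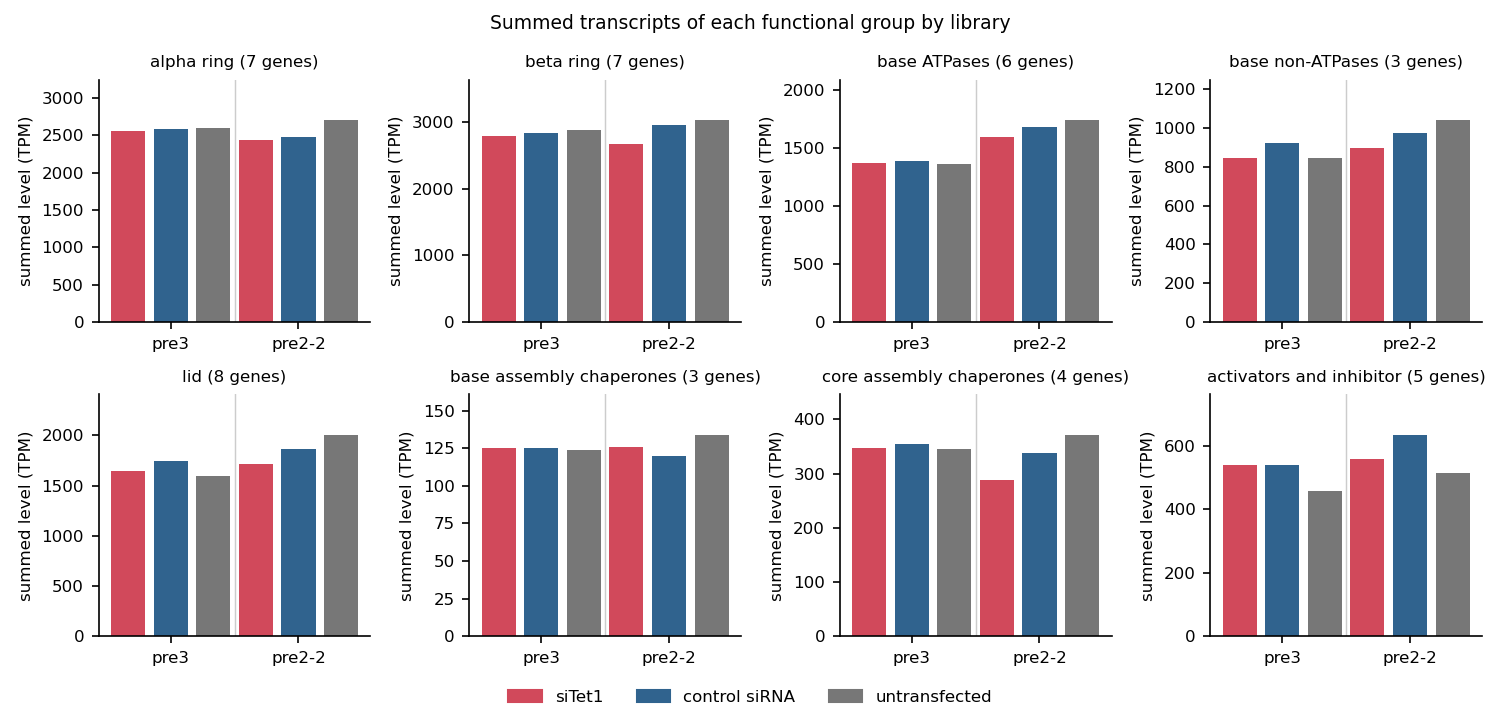
Summed level of the tested genes of each functional group in each library, in TPM, with pre3 on the left of each panel and pre2-2 on the right, and bars coloured by treatment. The base ATPases are the group whose 3 pre3 libraries, at 1362 to 1386 TPM, all lie below the 3 pre2-2 libraries, at 1596 to 1740 TPM.

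The knockdown was assessed by setting siTet1 libraries against control siRNA libraries, with line as a block. None of the 43 proteasome genes changed by edgeR's quasi-likelihood test at an adjusted p under 0.05, against 1.58% of all genes. With so low a share over all genes, 0 of 43 is close to the background and says little about the set. At an unadjusted p under 0.05 there was 1 gene of the set, Psmd9, against 10.8% of all genes. DESeq2 called 0 of the set, against 0.217% of all genes, and had 0 of the set at an unadjusted p under 0.05. The 95% interval, unadjusted, lay within 1.5-fold either way for 39 of the 43 genes, against 47.2% of all genes. It lay within 2-fold for all 43. The lowest mean was 22.9 CPM in the set and 2.24 CPM over all genes, so these shares are not matched for abundance.

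Of the 43 genes, 34 had a log2 fold change below 0, against 49.3% of all genes. The median was -0.09 on the log2 scale, against 0.00 over all genes. Within lines the median was -0.03 in pre3 and -0.12 in pre2-2, and with 1 library left out at a time it ranged from -0.15 (without the pre3 siTet1 library) to -0.03 (without the pre2-2 siTet1 library). Both siTet1 libraries lay below both control siRNA libraries for 15 genes and above both for 2, or 34.9% and 4.65%, against 12.9% and 12.6% of all genes. The genes were measured in the same 4 libraries, so these counts describe them and are no test.

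The 3 largest differences were in Psmd9, Psmb4 and Psmd3. Psmd9 had 46.3 (pre3) and 36.5 (pre2-2) CPM with siTet1, against 32.5 and 28.3 CPM with control siRNA. Its siTet1 libraries were higher in both lines, by 0.44 (SE 0.21) on the log2 scale with an adjusted p of 0.43. Psmb4 had 234 and 192 CPM with siTet1, against 251 and 253 CPM with control siRNA, a difference of -0.25 (SE 0.12, adjusted p 0.467). Psmd3, a structural lid subunit, had 288 and 251 CPM with siTet1, against 342 and 295 CPM with control siRNA, a difference of -0.24 (SE 0.13, adjusted p 0.519). In all 3 genes the treatments did not overlap, and none of the 3 passed the test. The sizes rested on single libraries. Psmb4 stood at -0.39 without the pre3 siTet1 library and at -0.11 without the pre2-2 one. Psmd3 stood at -0.38 without the pre3 siTet1 or the pre2-2 control siRNA library, and at -0.11 without the pre2-2 siTet1 or the pre3 control siRNA library.

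The catalytic subunits differed little between siTet1 and control siRNA. The log2 fold change was 0.05 for Psmb5 (interval -0.23 to 0.32), -0.01 for Psmb6 (interval -0.28 to 0.26) and -0.11 for Psmb7 (interval -0.35 to 0.14). In CPM, Psmb5 had 180 (pre3) and 153 (pre2-2) with siTet1, against 163 and 158 with control siRNA, so the lines went opposite ways.

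**Figure D3:**
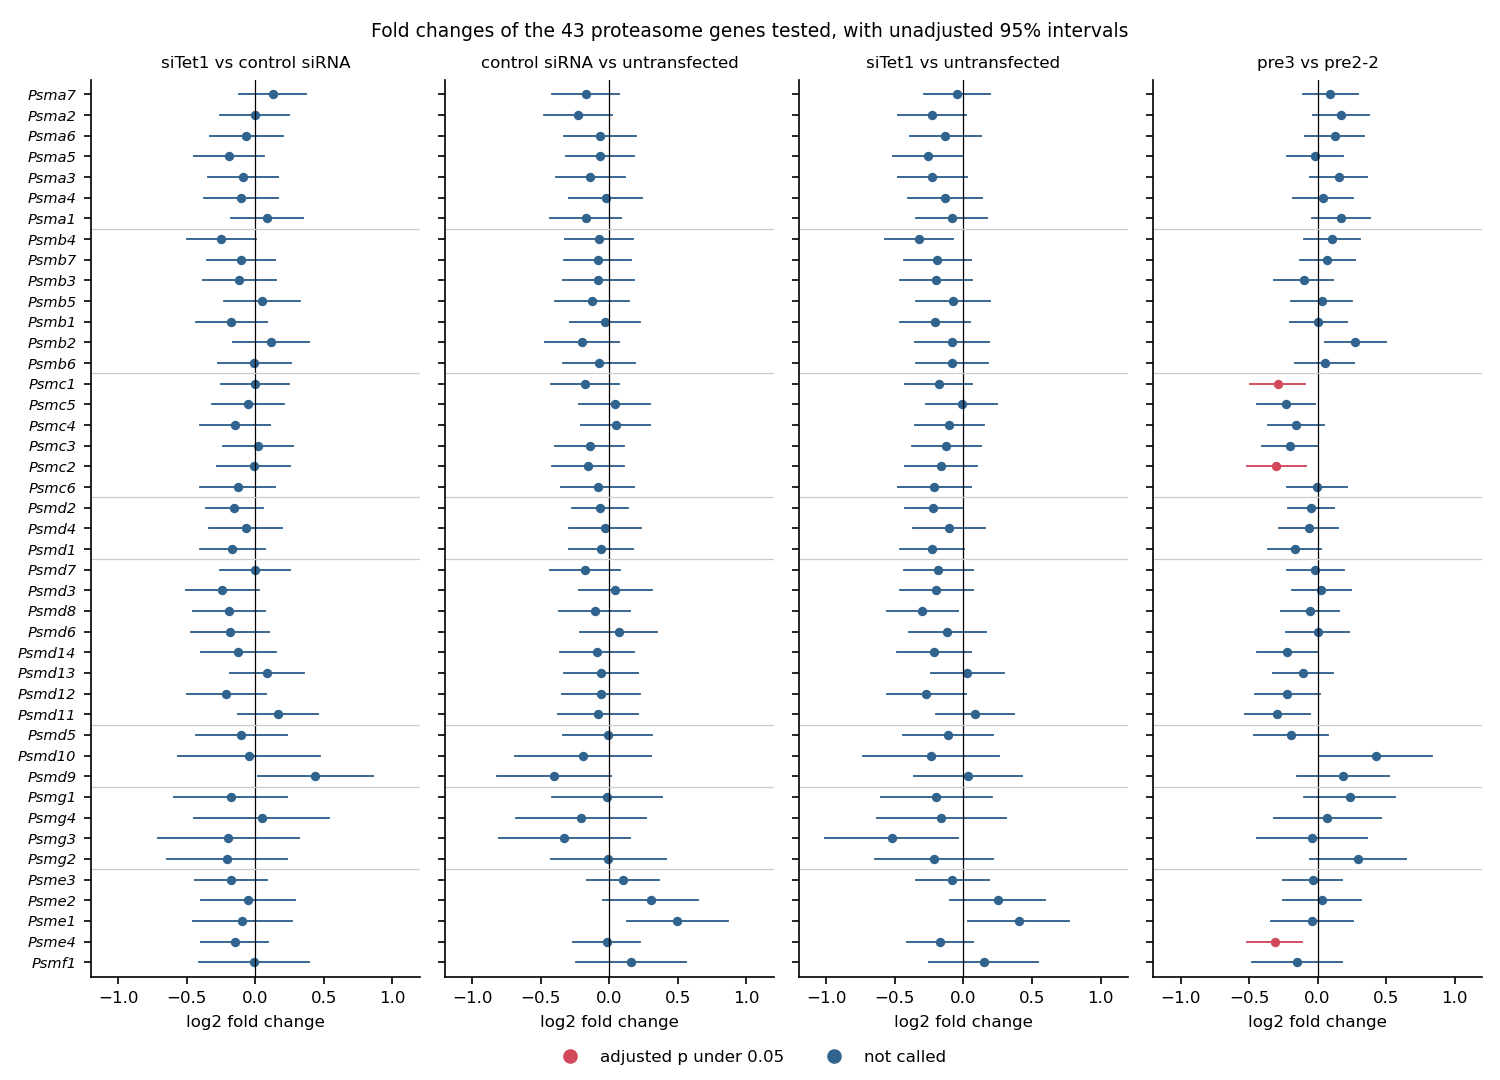
Log2 fold change of each tested proteasome gene in 4 comparisons, with unadjusted 95% intervals. Rows follow the functional groups, divided by grey lines, and red marks an adjusted p under 0.05. Red points are in the pre3 against pre2-2 panel only, for Psmc1, Psmc2 and Psme4.

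Transfection itself was assessed by setting control siRNA against untransfected libraries. Again none of the 43 genes changed by edgeR, against 1.48% of all genes, so this 0 is also close to the background. At an unadjusted p under 0.05 there was 1, Psme1, against 9.20% of all genes. DESeq2 called 0 of the set, against 0.29% of all genes, and had 0 of the set at an unadjusted p under 0.05. All 14 tested core ring genes had a log2 fold change below 0, of -0.03 to -0.23, whereas 4 of the 5 activator and inhibitor genes lay above 0. Over the set, 35 of 43 were below 0, with a median of -0.08 against 0.00 over all genes. Both control siRNA libraries lay below both untransfected ones for 12 genes (27.9%) and above them for 2 (4.65%), against 10.8% and 10.4% of all genes. Without the untransfected pre2-2 library 10 of the 14 ring genes were below 0, Psmb5 stood at 0.04 and the median of the set was -0.02. The count of ring genes below 0 was 11 without the pre3 control siRNA library and 13 without the pre2-2 one. Without the untransfected pre3 library it was 14, and the median was -0.15.

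Psme1, the alpha chain of the interferon-inducible activator, had the largest difference. It had 58.0 (pre3) and 55.7 (pre2-2) CPM with siTet1, 54.4 and 66.8 CPM with control siRNA, and 45.1 and 41.2 CPM untransfected. Both untransfected libraries were the lowest. The difference of control siRNA from untransfected was 0.50 (SE 0.18, interval 0.13 to 0.86, adjusted p 0.265). Its partner Psme2 had 71.8 and 66.5 CPM with siTet1, 64.5 and 78.4 CPM with control siRNA, and 64.1 and 52.8 CPM untransfected. The difference for Psme2 was 0.30 (SE 0.17, adjusted p 0.652), with nearly all of it in pre2-2. Neither passed the test. Without the untransfected pre2-2 library the difference was 0.37 for Psme1 and 0.12 for Psme2. Without the pre2-2 control siRNA library it was 0.29 for Psme1 and 0.05 for Psme2.

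The next largest differences between control siRNA and untransfected libraries were in chaperones. Psmd9 had 32.5 (pre3) and 28.3 (pre2-2) CPM with control siRNA, against 40.5 and 39.6 CPM untransfected, a difference of -0.41 (SE 0.20, adjusted p 0.571), or -0.27 without the untransfected pre2-2 library. Psmg3, a core chaperone, had 26.1 and 21.5 CPM with siTet1, 21.3 and 32.9 CPM with control siRNA, and 36.4 and 32.2 CPM untransfected. For Psmg3 the control siRNA libraries overlapped both other treatments, and the difference from untransfected was -0.33 (SE 0.23, adjusted p 0.77). That of Psmg3 was -0.52 without the untransfected pre2-2 library, -0.79 when the control siRNA library of pre2-2 was left out and 0.05 when that of pre3 was.

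The interferon-inducible catalytic genes, which are not in the set, are given beside Psme1. Psmb8 had 1.06 (pre3) and 3.75 (pre2-2) CPM with siTet1, 1.07 and 14.7 CPM with control siRNA, and 1.03 and 4.27 CPM untransfected, too few counts to test. Psmb9 did not exceed 3.04 CPM. Psmb10 had 16.0 and 22.9 CPM with siTet1, 16.5 and 27.8 CPM with control siRNA, and 19.0 and 31.5 CPM untransfected. Psmb8 was highest in the pre2-2 control siRNA library, and Psmb10 was lower in every pre3 library than in any pre2-2 library.

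Of 14 interferon response genes, 12 were tested. In control siRNA against untransfected libraries 9 rose and none fell, and in siTet1 against control siRNA libraries 9 fell and none rose. DESeq2 called 5 higher and 1 lower in these comparisons. Their summed level was 292 (pre3) and 656 (pre2-2) TPM with siTet1, 376 and 1375 TPM with control siRNA, and 182 and 325 TPM untransfected. Irf7, a factor of the interferon response, had 3.72 and 16.9 CPM with siTet1, 11.2 and 72.4 CPM with control siRNA, and 0 and 2.33 CPM untransfected. Irf1 did not pass the test in any comparison. Against control siRNA, the call of Irf7 ended with DESeq2, without line as a block, and without the siTet1 or the control siRNA library of pre2-2. In pre2-2, Psme1 and Psme2 were highest in the library in which Irf7 and Psmb8 were highest. In pre3, Irf7 was highest with control siRNA, whereas Psme1 and Psme2 were highest with siTet1 and Psmb8 lay between 1.03 and 1.07 CPM. Of 11 fibroblast markers tested, 4 rose in control siRNA against untransfected libraries, with all 12 summing to 775 (pre3) and 2708 (pre2-2) TPM against 686 and 1503 TPM. DESeq2 called 0 of the 11. The part of interferon signalling or of fibroblast-like cells in the values of Psme1 and Psme2 was not tested. In bulk RNA, fewer cells of a type and less RNA per cell cannot be told apart.

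**Figure D4:**
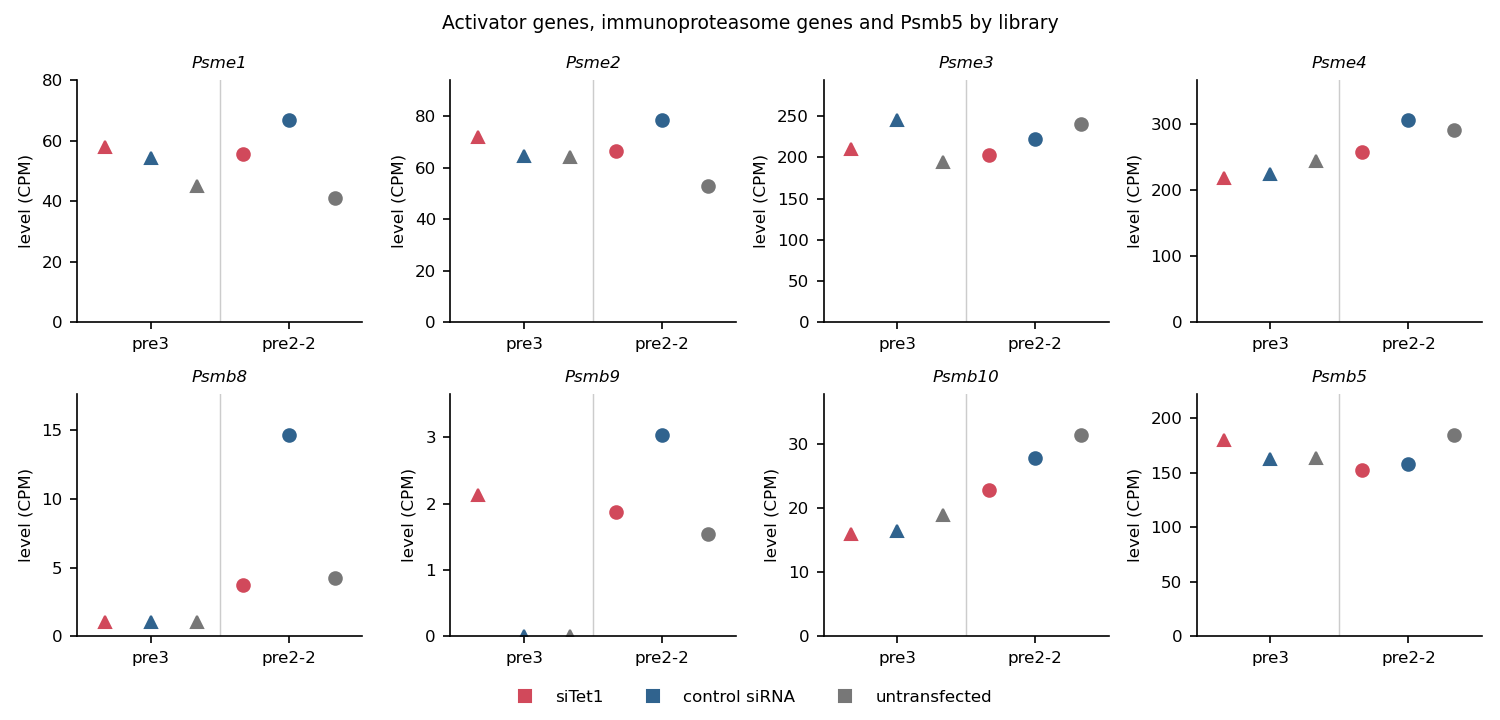
Level in CPM of the activator genes Psme1 to Psme4, the immunoproteasome genes Psmb8, Psmb9 and Psmb10 and the catalytic gene Psmb5 in each library, with pre3 (triangles) on the left and pre2-2 (circles) on the right of each panel, coloured by treatment. Psme1 is lowest in both untransfected libraries, at 45.1 and 41.2 CPM, and Psmb8 is highest in the pre2-2 control siRNA library, at 14.7 CPM.

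The promoters of Psme1 and Psme4 are shown for the activators that differed most, Psme1 between treatments and Psme4 between lines. The Psme1 window, chr14:55578244-55578543 on the plus strand of GRCm38.p6, holds the core of the interferon-stimulated response element, searched as GAAA, any 2 bases and GAAA, on the opposite strand 10 to 19 bases after the start. This motif was searched after the values of Psme1 and Psme2 had been seen. It was in 5 of the 37 windows (13.5%), namely Psmb3, Psmd4, Psmd9, Psme1 and Psmg4, against 3.99% of all promoters. In the narrower window of the 150 bases before the start it was in 1 of the 37 (2.7%), Psmd4, against 1.85% of all promoters. The Psme4 window, chr11:30771525-30771824 on the plus strand, holds TGACNNNGC on the opposite strand across the start, from 7 bases before it to base 2. Capitals mark the matches.
Psme1: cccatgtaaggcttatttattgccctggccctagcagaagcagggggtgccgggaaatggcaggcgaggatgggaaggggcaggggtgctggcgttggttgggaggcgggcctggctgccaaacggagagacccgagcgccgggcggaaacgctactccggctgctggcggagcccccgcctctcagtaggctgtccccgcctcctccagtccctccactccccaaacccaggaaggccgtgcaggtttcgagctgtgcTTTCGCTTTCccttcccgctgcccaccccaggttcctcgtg
Psme4: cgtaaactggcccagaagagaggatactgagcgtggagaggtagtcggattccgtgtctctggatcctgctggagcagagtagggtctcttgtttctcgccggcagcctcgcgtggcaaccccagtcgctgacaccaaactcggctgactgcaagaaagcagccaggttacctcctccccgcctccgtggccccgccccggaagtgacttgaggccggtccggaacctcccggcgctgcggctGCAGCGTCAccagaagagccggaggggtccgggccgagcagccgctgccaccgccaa

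The siTet1 libraries were also set against the untransfected ones, a comparison that shares its libraries with both above. None of the 43 genes changed by edgeR, against 6.55% of all genes. At an unadjusted p under 0.05 there were 6, Psma5, Psmb4, Psmd2, Psmd8, Psme1 and Psmg3, against 19.5% of all genes. DESeq2 called 0 of the set, against 0.787% of all genes, and had 0 of the set at an unadjusted p under 0.05. Of the 43 genes 37 were below 0, with a median of -0.17 against 0.01 over all genes. Within lines the median was -0.07 in pre3 and -0.27 in pre2-2. Both siTet1 libraries lay below both untransfected ones for 16 genes (37.2%), against 14.7% of all genes, and above them for 2 (4.65%), against 15.1%.

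The largest of these differences was in Psmg3, at -0.53 (SE 0.24, interval -1.01 to -0.04, adjusted p 0.21), with both siTet1 libraries below both untransfected ones. No other interval of the 43 reached beyond 2-fold. Psme1 differed by 0.40 (SE 0.18, adjusted p 0.206), again higher in both lines. Psmb4 had 234 (pre3) and 192 (pre2-2) CPM with siTet1, against 271 and 261 CPM untransfected, a difference of -0.33 (SE 0.12, adjusted p 0.117). This comparison turned on the untransfected libraries. Without the pre3 one, 8 genes fell (Psma5, Psmb4, Psmd1, Psmd2, Psmd3, Psmd7, Psmd12 and Psmd14), with Psmd3 at -0.46 and Psmb4 at -0.38. This was 18.6% of the set, against 16.6% of all genes under that setting, so the share of the set is close to the background. Without the pre2-2 one, 0 genes of the set were called, against 2.57% of all genes, and the median was -0.07. Psmg3 then stood at -0.72, Psme1 at 0.27 and Psmb4 at -0.28.

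The lines differed in more genes than the treatments did. In pre3 against pre2-2, with treatment in the model, 3 of the 43 genes fell and none rose by edgeR, which is 6.98% against 30.2% of all genes. The background was 15.8% for genes that fell and 14.4% for genes that rose. At an unadjusted p under 0.05 there were 7 of 43, against 40.2% of all genes. The difference lay within 1.5-fold by its interval for 41 of the 43 genes, against 43.6% of all genes, again not matched for abundance. The median was -0.02, with 23 genes below 0.

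The 3 genes that fell were Psme4, Psmc1 and Psmc2. Psme4 had 218, 224 and 244 CPM in pre3 (siTet1, control siRNA, untransfected), against 257, 305 and 291 CPM in pre2-2. It was lower in pre3 by -0.31 on the log2 scale (SE 0.10, adjusted p 0.0155). Psmc1 had 215, 200 and 230 CPM in pre3, against 241, 260 and 289 CPM in pre2-2, a difference of -0.29 (SE 0.10, adjusted p 0.0255). Psmc2 had 160, 152 and 161 CPM in pre3, against 177, 188 and 220 CPM in pre2-2, a difference of -0.30 (SE 0.10, adjusted p 0.0309). In all 3 every pre3 library was lower than every pre2-2 library.

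The calls did not hold under every alternative. DESeq2 called 0 of the 43 genes, against 12.9% of all genes, with a smallest adjusted p of 0.119 and 3 at an unadjusted p under 0.05. Leaving out either control siRNA library or the pre2-2 siTet1 library ended all 3 calls, and leaving out the pre3 siTet1 library ended those of Psmc1 and Psme4. Without either untransfected library the call of Psmc2 ended, and Psmd3 (0.21) and Psmg1 (0.48) were called higher in pre3. Of Psmc1, 17.6% of the 50-base words are shared with other annotated genes.

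Medians in pre3 against pre2-2 are given by group, without a test between groups. Of all genes, 49.7% were below 0. All 6 base ATPases had a log2 fold change below 0, with a median of -0.22, against 6 of 7 alpha ring genes above 0, with a median of 0.13, and 6 of 7 beta ring genes above 0, with a median of 0.05. The lid had 6 of 8 genes below 0, with a median of -0.08. Of the genes of these 4 groups, Psmc1 and Psmc2 alone passed the test. The 2 lines did not overlap for 9 genes that were lower in pre3, Psmc1, Psmc2, Psmc3, Psmc4, Psmc5, Psmd5, Psmd11, Psme4 and Psmf1, which is 20.9% against 18.2% of all genes. They did not overlap for 3 that were higher in pre3, Psmb2, Psmd10 and Psmg2, or 6.98% against 18.8%. The share of lower genes is close to the background.

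Psmd10, known as the oncoprotein gankyrin and a base chaperone, had the largest difference between lines. It had 22.9, 27.7 and 28.2 CPM in pre3 (siTet1, control siRNA, untransfected), against 19.7, 16.7 and 22.1 CPM in pre2-2. Its difference was 0.42 (SE 0.20, interval 0.01 to 0.83) and did not pass the test, with an adjusted p of 0.111. Psmb2, a structural beta subunit, had the smallest adjusted p of the genes higher in pre3, at 146, 139 and 164 CPM in pre3 against 128, 115 and 129 CPM in pre2-2. Its difference was 0.27 (SE 0.11, adjusted p 0.0562). Psmd11 had 97.3, 83.7 and 88.7 CPM in pre3, against 114, 105 and 111 CPM in pre2-2, a difference of -0.29 (SE 0.12, adjusted p 0.0547). Other lists moved with the line. Of the fibroblast markers 10 of 11 tested fell in pre3, of the interferon response genes 10 of 12 fell, and of 6 pluripotency markers 3 rose and 2 fell. Their part in the values of Psme4, Psmc1 and Psmc2 was not tested.

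**Figure D5:**
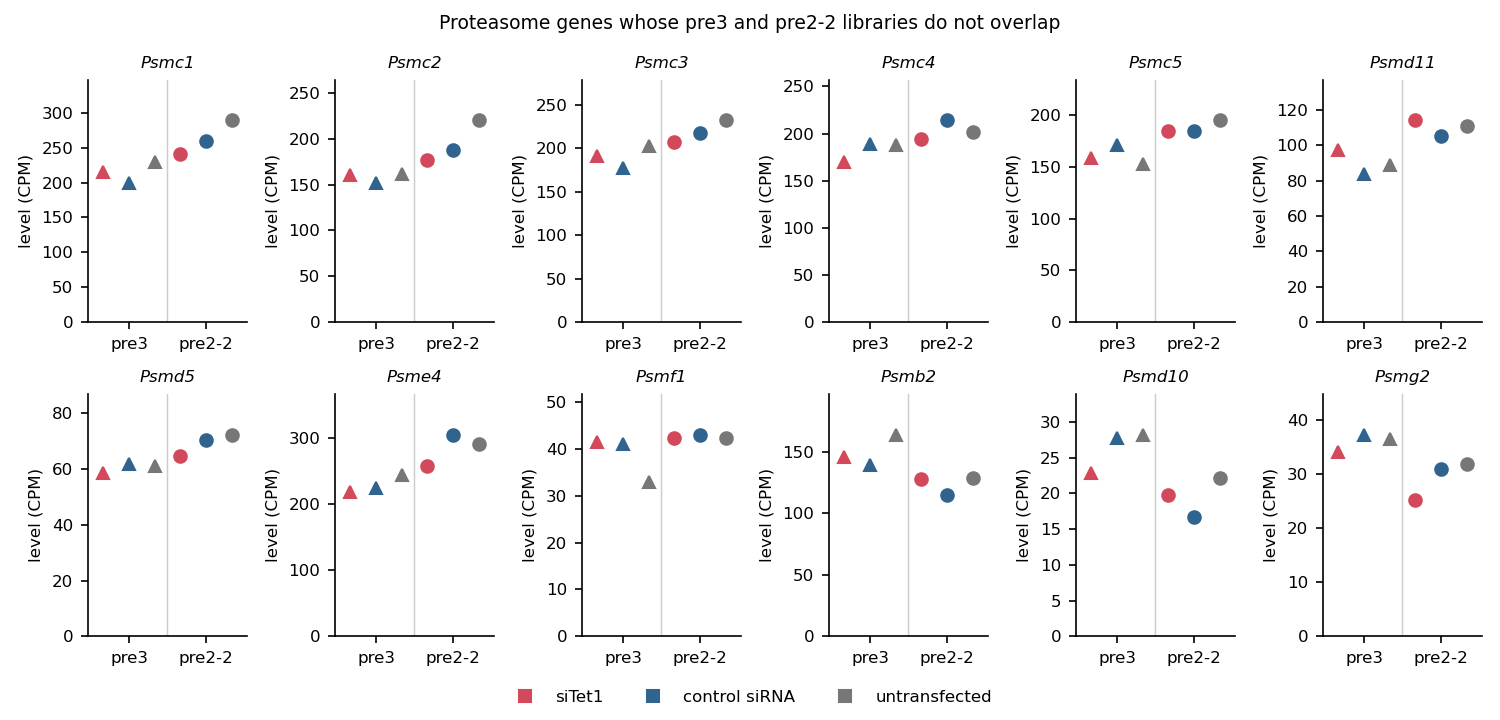
Level in CPM of the 12 proteasome genes whose 3 pre3 libraries (triangles, left) and 3 pre2-2 libraries (circles, right) do not overlap, coloured by treatment. The first 9 panels hold genes lower in pre3, 5 of them base ATPases, and the last 3 hold genes higher in pre3.

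Whether the lines responded differently was tested with an interaction, with the libraries of a line that lacked siTet1 taken as 1 group. None of the 43 genes was called by edgeR, against 0% of all genes. At an unadjusted p under 0.05 there were 0, against 2.44% of all genes. DESeq2 called 0 of the set and 0% of all genes. The interval was within 1.5-fold for 12 of the 43, and for the rest a difference of that size lay inside the interval. For transfection, pooling both siRNAs, 0 genes of the set were called, against 0.00905% of all genes. There 1 gene, Psmd3, had an unadjusted p under 0.05, against 5.46% of all genes. DESeq2 called 0 of the set, against 0.0453% of all genes. Psmd3 had 288 (siTet1) and 342 (control siRNA) CPM against 273 CPM untransfected in pre3, and 251 and 295 CPM against 342 CPM untransfected in pre2-2, so the lines went opposite ways.

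Other genes of the pathway were read from 4 lists. In siTet1 against control siRNA libraries none changed of 11 proteasome partners, 10 regulators of proteasome genes, 6 genes of ubiquitin supply and activation and 11 of substrate delivery. By edgeR there were 0, 2, 0 and 1 at an unadjusted p under 0.05, and DESeq2 called 0 in each list. Nfe2l1 had 235 (pre3) and 294 (pre2-2) CPM with siTet1, 222 and 278 CPM with control siRNA, and 219 and 252 CPM untransfected. Nfe2l2 had 69.1 and 74.9 CPM with siTet1, 52.8 and 48.1 CPM with control siRNA, and 61.5 and 47.0 CPM untransfected. Nfe2l2 was highest in both siTet1 libraries, but its difference from control siRNA of 0.52 (SE 0.17) had an adjusted p of 0.171. Pomp, the chaperone that completes the core, had 110 and 102 CPM with siTet1, 124 and 96.2 CPM with control siRNA, and 130 and 120 CPM untransfected, with a difference of -0.05 between the siRNAs.

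In control siRNA against untransfected libraries none of the 4 lists held a called gene, with 1, 1, 0 and 1 at an unadjusted p under 0.05 by edgeR and 0 called by DESeq2. In siTet1 against untransfected libraries 2 genes were called, 1 of 10 regulators (10%) and 1 of 11 substrate delivery genes (9.09%), against 6.55% of all genes. Foxo4, a transcription factor tied to PSMD11 in human embryonic stem cells, fell, with 149 (pre3) and 222 (pre2-2) CPM with siTet1, 218 and 227 CPM with control siRNA, and 253 and 347 CPM untransfected. Its difference was -0.70 (SE 0.13, adjusted p 0.00137), and the call ended without line as a block and without the pre3 siTet1 library. Sqstm1, the autophagy receptor p62, rose, with 387 and 392 CPM with siTet1, 365 and 364 CPM with control siRNA, and 332 and 270 CPM untransfected. It differed from untransfected by 0.38 (SE 0.12, adjusted p 0.0472). That call ended in 10 of 12 alternatives.

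In pre3 against pre2-2, 4 of the 10 regulators fell, and of the other lists 1 of 11 partners rose, 1 of 6 ubiquitin supply genes rose and 1 of 11 substrate delivery genes fell. Of all genes 30.2% were called, 15.8% lower and 14.4% higher. Nfe2l1 fell by 0.28 (SE 0.10, adjusted p 0.0268) and Ngly1, the deglycosylase that activates it, fell by 0.83 (SE 0.18, adjusted p 0.00114). Ngly1 had 23.4, 20.3 and 16.4 CPM in pre3 (siTet1, control siRNA, untransfected), against 41.2, 35.4 and 29.9 CPM in pre2-2, without overlap. Sel1l, of the pathway that extracts proteins from the endoplasmic reticulum, fell by 0.45, with 92.6, 82.1 and 88.2 CPM in pre3 against 122, 122 and 115 CPM in pre2-2. Foxo4 fell by 0.36. Among the other lists, the lid component Shfm1 rose by 0.40, with 146, 127 and 171 CPM in pre3 against 114, 105 and 116 CPM in pre2-2. The ubiquitin precursor gene Rps27a rose by 0.21, with 911, 902 and 1010 CPM in pre3 against 760, 780 and 895 CPM in pre2-2. Nploc4, a cofactor of the segregase Vcp, fell by 0.35, with 129, 159 and 135 CPM in pre3 against 176, 191 and 169 CPM in pre2-2. The lines did not overlap for Sel1l, Shfm1, Rps27a and Nploc4, whereas for Foxo4 they did. The immunoproteasome gene Psmb10 fell by 0.67 (SE 0.20, adjusted p 0.0119). With DESeq2 none of these 8 calls held, and those of Nfe2l1, Rps27a and Nploc4 also ended with any of the 4 siRNA libraries left out. The calls of Sel1l and Psmb10 ended without either control siRNA library, and that of Foxo4 without either siTet1 library.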

How the data were processed

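The authors deposited 2 values per gene and library, an expected count and a fraction, made with RSEM 1.1.21 and the build mm9 per the submitters' processing notes. The expected count is an estimated read number with no normalization, and the deposited fraction is the share of transcripts, here scaled to TPM. Read length, filters and strand are not given in the sources used here. Between 18.7 and 21.4% of expected counts per library were not whole (tolerance 0.005), and they were rounded.

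Counts were scaled by TMM, and 11048 genes passed filterByExpr (minimum count 10). The test was edgeR 4.0.16's quasi-likelihood test in R 4.3.3, with treatment and line as terms over all 6 libraries and Benjamini-Hochberg adjustment over the 11048 genes. A gene was called, and is said to have risen or fallen, at an adjusted p under 0.05. Same-numbered libraries come from the same line, so line is the replicate block. Standard errors are the log2 fold change over the root of F. In the comparisons of treatments and of lines, a gene's own spread had 2 degrees of freedom, against 23.2 borrowed from all genes. The edgeR p-values and intervals thus rest mostly on pooled spread. DESeq2 1.42.0, other scalings, no filter, no block, the 4 libraries compared alone, and leaving out each library were the alternatives.

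The genes and lists were chosen with earlier results of these data known. Values in every library are given for genes of the set and pathway lists called in any comparison, the 3 largest differences of a comparison, the catalytic subunits, Psme1, Psme2, the tissue-restricted paralogs, and the highest and lowest gene of each functional group. A series table of TPM, with 6 sample columns, was not used. Promoters are RefSeq windows of GRCm38.p6, matched by symbol. With 2 libraries against 2, an exact permutation test of 1 gene could not go below p = 0.333.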

Additional observations from a re-analysis of the deposited data

How the results depend on the processing

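No called difference changed sign under the alternatives run, and the uncalled median of pre3 against pre2-2, -0.017, ranged from -0.073 to 0.049. With 1 library left out at a time, the count of proteasome genes called ranged from 0 to 1 in control siRNA against untransfected libraries (Psmd7, without the pre3 untransfected library), from 0 to 8 in siTet1 against untransfected libraries, and from 0 to 4 in pre3 against pre2-2. It stayed at 0 in siTet1 against control siRNA. The share of the set called was below that of all genes where Psmd7 was called, and close to it where 8 genes were. Where 4 genes were called in pre3 against pre2-2, without either untransfected library, the share was 9.3%, against 31.7% of all genes. The median log2 fold change ranged from -0.145 to -0.029 in siTet1 against control siRNA and from -0.149 to -0.016 in control siRNA against untransfected libraries. DESeq2 called 0 genes of the set in pre3 against pre2-2, against 3 by edgeR, and 1429 against 3335 genes in all. The causes were not tested. Without line as the replicate block, 0% of all genes were called in each comparison of treatments, so the 0 proteasome genes called there tell nothing about the set. The call of Tet1 against control siRNA ended too. That call also ended with DESeq2, without the pre2-2 siTet1 library and without the pre3 control siRNA library. With RLE factors or library totals alone, Psmd11 joined Psmc1, Psmc2 and Psme4. Where an arm was left with 1 library, that library was assumed to vary like the others. With 1 library per line and treatment, differences of under about 1.5-fold in low genes such as Psmg3 and Psmd10 are within the intervals.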
